A study of Mus musculus with 6 samples.

Results

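The voltage-gated potassium channel subunits were the genes whose symbols are Kcn, a family letter (a, b, c, d, f, g, h, q, s or v) and a number. Among linear transcripts, 40 of 54787 genes matched, with 185 of the 155855 isoforms that share exons with a named gene. Of these isoforms 132 were annotated, 51 were assembled isoforms with a splice pattern of their own, and 2 were assembled isoforms with another kind of exon overlap. Another 80 rows with these symbols that lie inside introns, and 4 rows with no sense exon overlap, were left out. The table of circular RNAs (circRNAs, in which a back-splice joins the end of a transcript segment to its start) added 69 of 17369 entries from 13 of the genes, 59 found by the symbol of the host gene and 10 only by its isoform.

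RNA was taken from the prefrontal cortex of male C57BL/6 mice. In the TREAT_HIGH group (n = 3 samples) the mice received 50 mg/kg body weight of polystyrene nanoparticles (PS NPs) by gavage each day for 6 months, and in the CON group (n = 3 samples) they received water (0 mg/kg). Both groups began dosing at an age of 5 weeks and were sampled at 30 weeks. The labels list separate samples and do not say how many animals each sample holds, so p-values measure only the spread between these samples, which may be technical. Ribosomal RNA was removed before stranded library construction.

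A voltage-gated potassium channel lets potassium leave the neuron when the membrane depolarises, which ends the action potential and sets the firing rate. Its pore is built of subunits of the A (Shaker), B (Shab), C (Shaw), D (Shal), H (EAG, ERG and ELK) or Q (M current) families. The F, G, S and V families form no working pore alone and join Shab subunits as silent partners. In cortical neurons A subunits sit on axons, B subunits on cell bodies, D subunits on dendrites, and C subunits serve fast-spiking interneurons.

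Promoter sequence was available for 25 of the 40 genes, as 30 windows of 300 bases in RefSeq (GRCm38.p6), each with 250 bases before and 50 bases after a start site. For 14 of these windows the start site was also the start of an isoform in the table. CG dinucleotides, which read the same on both strands, numbered 0 to 49 per window with a median of 19.5, against a median of 7 in all 32851 windows. At least 20 of them stood in 15 windows (50.0%), against 26.5% of all windows. The motif TATAAA, searched on both strands, was in 0 of the 30 windows, against 13.6% of all windows. Kcna2 is shown because an isoform whose share did not overlap between the groups starts in its window, and the counterpart of that isoform starts downstream. Kcna4 is shown because it had the smallest p of the genes, Kcnh5 because it hosts the most back-splice reads, and Kcnf1 as a window with few CG. Capitals mark CG.
Kcna2, chr3:107101317-107101616, plus strand: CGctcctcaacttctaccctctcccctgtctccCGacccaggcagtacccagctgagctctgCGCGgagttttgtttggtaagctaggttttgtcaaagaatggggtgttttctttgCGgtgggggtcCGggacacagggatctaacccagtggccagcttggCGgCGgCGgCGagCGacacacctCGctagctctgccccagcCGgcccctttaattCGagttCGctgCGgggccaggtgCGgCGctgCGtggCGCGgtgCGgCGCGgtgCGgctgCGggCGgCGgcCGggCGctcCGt
Kcna4, chr2:107290339-107290638, plus strand: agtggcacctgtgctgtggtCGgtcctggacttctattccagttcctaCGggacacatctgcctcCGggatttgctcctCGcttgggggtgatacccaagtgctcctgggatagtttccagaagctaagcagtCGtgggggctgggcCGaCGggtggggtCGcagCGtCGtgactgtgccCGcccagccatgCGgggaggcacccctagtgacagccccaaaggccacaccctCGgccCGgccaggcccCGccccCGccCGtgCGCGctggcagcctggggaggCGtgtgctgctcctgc
Kcnh5, chr12:75177283-75177582, minus strand: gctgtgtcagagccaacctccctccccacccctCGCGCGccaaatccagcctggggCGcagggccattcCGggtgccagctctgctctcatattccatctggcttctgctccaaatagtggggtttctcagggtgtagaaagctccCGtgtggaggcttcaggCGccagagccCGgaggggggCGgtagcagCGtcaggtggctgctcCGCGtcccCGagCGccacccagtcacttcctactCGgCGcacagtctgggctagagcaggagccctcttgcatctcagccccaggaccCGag
Kcnf1, chr12:17176839-17177138, minus strand: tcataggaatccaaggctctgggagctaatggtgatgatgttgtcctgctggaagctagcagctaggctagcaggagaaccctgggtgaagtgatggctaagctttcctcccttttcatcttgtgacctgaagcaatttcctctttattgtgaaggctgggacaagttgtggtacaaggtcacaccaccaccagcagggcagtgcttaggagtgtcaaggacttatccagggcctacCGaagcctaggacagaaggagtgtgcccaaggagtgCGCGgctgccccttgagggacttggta
The Kcna2 window held 31 CG, more than 89.4% of all windows held. The Kcna4 window held 20, the Kcnh5 window 17 and the Kcnf1 window 3, and all 4 genes had a mean level above 9 FPKM. The 40 genes lay on 16 chromosomes, and 2 clusters held 6 of the 8 Kcna genes. Kcna3, Kcna2 and Kcna10 lay within 160 kb of chromosome 3, and Kcna5, Kcna1 and Kcna6 within 208 kb of chromosome 6.

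Estimated linear counts summed to 53344395 to 63466209 in TREAT_HIGH libraries and 61842978 to 66004386 in CON libraries, and back-splice reads to 15658 to 19880 in TREAT_HIGH libraries and 17554 to 19957 in CON libraries. TREAT_HIGH replicate 1 stood apart, at -57 on the first principal component (26.8% of the variance), while the other libraries lay between -14.4 and 28.3. All 12 listed markers of excitatory cortical neurons and 11 of 12 of GABAergic interneurons passed the filter on low values, and the summed level of the excitatory markers was 2277 to 2513 CPM (counts scaled by TMM library size) in TREAT_HIGH libraries and 2051 to 2540 CPM in CON libraries. Markers of the choroid plexus, which is not cortex, differed between libraries within both groups, with sums of 31.95, 890.2 and 561.4 CPM in TREAT_HIGH libraries and 19.68, 480.5 and 232.8 CPM in CON libraries. All 7 tested choroid plexus markers had log2 fold changes above 0 (median 0.84), as had all 7 tested markers of meningeal and perivascular fibroblasts (median 0.42). All 5 red blood cell genes lay below 0 (median -0.47), and every other marker list split in direction. Thalamic markers summed to 341.7 to 720.8 CPM in TREAT_HIGH libraries and 285.7 to 609.7 CPM in CON libraries. Striatal markers summed to 250.7 to 451.7 CPM in TREAT_HIGH libraries and 297.7 to 458.9 CPM in CON libraries, and what these other cells add to any subunit's value was not tested. No gene of the 11 marker lists passed the test.

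The subunit genes were measured at very different levels. Levels between genes are given as FPKM, which divides by isoform length, summed over the isoforms of a gene. Over the 6 libraries 14 genes had a mean of at least 10 FPKM, 15 lay between 1 and 10 and 11 lay below 1. Kcnh7, an ERG subunit, with 38.4 ± 6.19 FPKM (SD, n = 6 libraries) and the axonal Shaker subunit Kcna2 with 34.8 ± 9.84 FPKM were among the highest, and their ranges over the libraries overlapped. Kcna1, a second axonal Shaker subunit, had 21.3 ± 2.97 FPKM, the silent subunit Kcnv1 20.5 ± 7.43 FPKM and the Shal subunit Kcnd2 20.3 ± 5.66 FPKM. The ranges of these 3 neighbours overlapped as well. Kcna7 had a count of 0 in all 6 libraries, and Kcna10, Kcnh6, Kcnh8, Kcnq1 and Kcnv2 had means of 0.065 to 0.381 FPKM, so these 6 genes were below the 0.5 FPKM asked of a tested gene.

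**Figure D1:**
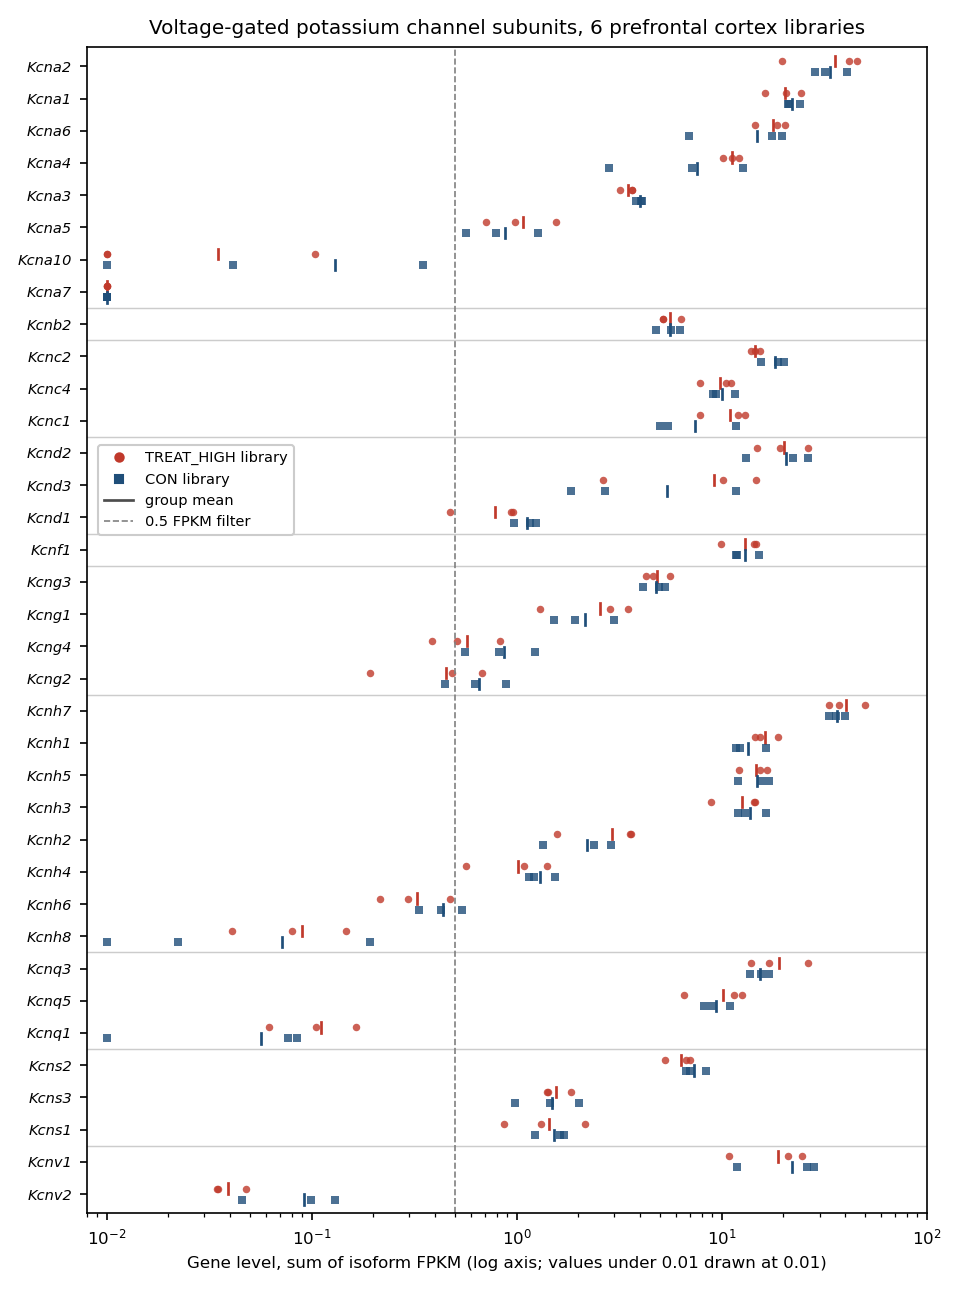
Level of 36 subunit genes in each library, as the sum of isoform FPKM on a log axis, by family from top to bottom, with TREAT_HIGH libraries as circles above CON libraries as squares and short bars for group means. Kcnh7 and Kcna2 lie highest of those drawn, most pairs of groups overlap, and 6 genes lie left of the dashed line at 0.5 FPKM in their mean over all libraries.

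Summed over a family, the H subunits had 91.9, 92.3 and 80.1 FPKM in TREAT_HIGH libraries and 82.8, 79.1 and 86.2 FPKM in CON libraries. The A subunits had 70.9, 107 and 91.9 FPKM in TREAT_HIGH libraries and 87.0, 75.0 and 87.7 FPKM in CON libraries, and the Q subunits 79.0, 86.9 and 60.4 FPKM against 71.6, 73.1 and 73.2 FPKM in CON libraries. The groups overlapped in all 3 of these families. All subunit genes together made up 4044, 4626 and 3895 CPM of the gene counts in TREAT_HIGH libraries and 3872, 3733 and 4222 CPM in CON libraries (before TMM scaling), which overlapped too.

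The comparison of TREAT_HIGH with CON asks whether daily PS NPs changed the transcripts of these channels. None of the 34 subunit genes tested passed the threshold of an adjusted p under 0.05 in edgeR (the smallest adjusted p was 1.0), where 0.0247% of all 20272 genes passed. An unadjusted p under 0.05 was found for 1 of the 34 genes (2.94%), against 2.73% of all genes, and no subunit gene was called by DESeq2 or by limma on FPKM either. The groups did not overlap in 3 genes, Kcna4, Kcna3 and Kcnd1 (8.82%, against 7.09% of all genes). The log2 fold changes had a median of -0.03, with 14 genes above 0 and 20 below, and the median over all genes tested was -0.01. For 19 of the 34 genes the 95% interval of the fold change lay inside 2-fold in both directions, and for 15 it reached 2-fold, so a change of that size is not excluded there. In bulk tissue, fewer cells of a type and less RNA per cell cannot be told apart.

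**Figure D2:**
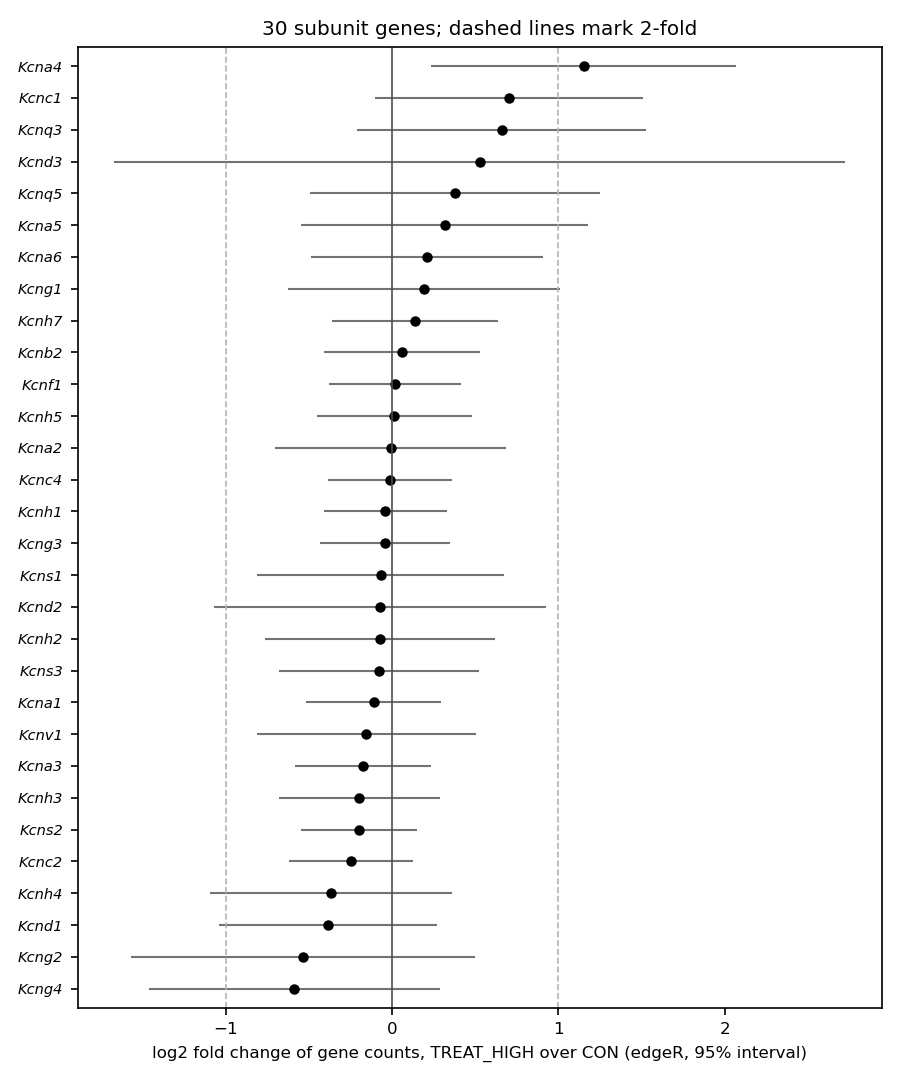
Log2 fold change of the counts of 30 of the 34 tested subunit genes, TREAT_HIGH over CON, with 95% intervals from edgeR, in order of size. The values run from 1.15 for Kcna4 to -0.59 for Kcng4, and the interval of Kcna4 alone lies clear of 0.

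Among the Shaker subunits, Kcna4, which forms fast inactivating A-type channels and lies on chromosome 2 (107290639 to 107317498), showed the widest gap between the groups. It had 314, 250 and 296 CPM in TREAT_HIGH libraries and 59.7, 124 and 203 CPM in CON libraries, so every TREAT_HIGH library lay above every CON library. The log2 fold change was 1.15 (SE 0.39, 95% interval 0.23 to 2.07), with an unadjusted p of 0.0206 and an adjusted p of 1.0 in edgeR. A long assembled isoform held 85.7% to 96.3% of its counts in TREAT_HIGH libraries and 35.5% to 95.8% in CON libraries, and with annotated isoforms only the log2 fold change was -0.16. On FPKM the groups overlapped, with 12.2, 11.2 and 10.1 FPKM in TREAT_HIGH libraries and 2.83, 12.6 and 7.17 FPKM in CON libraries.

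Kcna2, which with Kcna1 forms the low-threshold channels of axons, lies on chromosome 3 (107101146 to 107115005) and had 325, 722 and 527 CPM in TREAT_HIGH libraries and 659, 436 and 486 CPM in CON libraries. Both the lowest and the highest library were TREAT_HIGH libraries, and the log2 fold change was -0.01 (SE 0.30). Kcna1, on chromosome 6 (126573688 to 126646384), had 464, 472 and 336 CPM in TREAT_HIGH libraries and 461, 410 and 501 CPM in CON libraries, a log2 fold change of -0.11 (SE 0.17). Its groups overlapped as well. Kcna3, a Shaker subunit also known from lymphocytes, was the second gene without overlap, but the gap was small. Named after its values were seen, it had 9.96, 10.2 and 10.1 CPM in TREAT_HIGH libraries and 12.1, 11.5 and 10.6 CPM in CON libraries (log2 -0.17, SE 0.18).

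Of the Shab subunits, which form delayed rectifiers, Kcnb2 had 139, 95.1 and 99.5 CPM in TREAT_HIGH libraries and 125, 89.0 and 105 CPM in CON libraries, with overlap (log2 0.06, SE 0.20).

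The Shaw subunits let fast-spiking neurons repolarise quickly, and none of them passed the test. Kcnc1 had 98.3, 159 and 144 CPM in TREAT_HIGH libraries and 56.6, 129 and 61.0 CPM in CON libraries, with CON replicate 2 inside the range of TREAT_HIGH (log2 0.71, SE 0.34). Kcnc2 had 232, 198 and 195 CPM in TREAT_HIGH libraries and 284, 245 and 210 CPM in CON libraries, with TREAT_HIGH replicate 1 inside the range of CON (log2 -0.24, SE 0.16). Kcnc4 had 46.8, 56.9 and 59.6 CPM in TREAT_HIGH libraries and 52.6, 50.4 and 61.6 CPM in CON libraries, and its ranges overlapped (log2 -0.01, SE 0.16).

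Among the Shal subunits, which carry the dendritic A current, spread within groups was the main feature. Kcnd2 had 167, 73.3 and 82.6 CPM in TREAT_HIGH libraries and 164, 59.7 and 116 CPM in CON libraries (log2 -0.07, SE 0.43). Kcnd3 had 18.2, 108 and 128 CPM in TREAT_HIGH libraries and 23.4, 14.7 and 138 CPM in CON libraries (log2 0.53, SE 0.94). The Kcnd3 value rests on single libraries, with a log2 fold change of 2.15 without CON replicate 3, 0.069 without CON replicate 2, 0.099 without TREAT_HIGH replicate 3 and 1.99 with annotated isoforms only. In both genes the lowest and the highest library of a group differed by over 2-fold. Kcnd1 had 4.09, 7.29 and 7.41 CPM in TREAT_HIGH libraries and 7.49, 7.54 and 9.51 CPM in CON libraries, groups that did not overlap but lay close together (log2 -0.39, SE 0.28).

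In the Q family, Kcnq3, a subunit of the M channel that damps repetitive firing, on chromosome 15 (65986387 to 66286642), had 363, 161 and 128 CPM in TREAT_HIGH libraries and 153, 137 and 122 CPM in CON libraries (log2 0.66, SE 0.37). The gap came from TREAT_HIGH replicate 1, without which the log2 fold change was 0.08.

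In the H family, Kcnh7 had 500.1, 353 and 281 CPM in TREAT_HIGH libraries and 340, 332 and 359 CPM in CON libraries, so the highest and the lowest library were both TREAT_HIGH libraries (log2 0.14, SE 0.21). Kcnh1, an EAG subunit, had 113, 111 and 85.4 CPM in TREAT_HIGH libraries and 95.7, 112 and 110 CPM in CON libraries, with overlap (log2 -0.04, SE 0.16).

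Among the silent subunits, the highest of each family varied less than 2-fold over the libraries. Kcnf1 had 77.3, 103 and 101 CPM in TREAT_HIGH libraries and 88.8, 83.6 and 105 CPM in CON libraries (log2 0.02, SE 0.17). Kcns2 had 47.3, 56.6 and 53.3 CPM in TREAT_HIGH libraries and 57.6, 67.5 and 55.1 CPM in CON libraries (log2 -0.20, SE 0.15), and Kcng3 had 23.5, 22.8 and 22.7 CPM in TREAT_HIGH libraries and 26.2, 24.9 and 20.05 CPM in CON libraries (log2 -0.04, SE 0.17). The groups overlapped in each of these genes. Kcnv1 was the widest of these, with 167, 177 and 99.8 CPM in TREAT_HIGH libraries and 113, 185 and 195 CPM in CON libraries (log2 -0.15, SE 0.28). Kcng4 had 2.40, 4.67 and 2.86 CPM in TREAT_HIGH libraries and 4.94, 3.13 and 6.82 CPM in CON libraries (log2 -0.59, SE 0.37), with overlap at a low level.

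**Figure D3:**
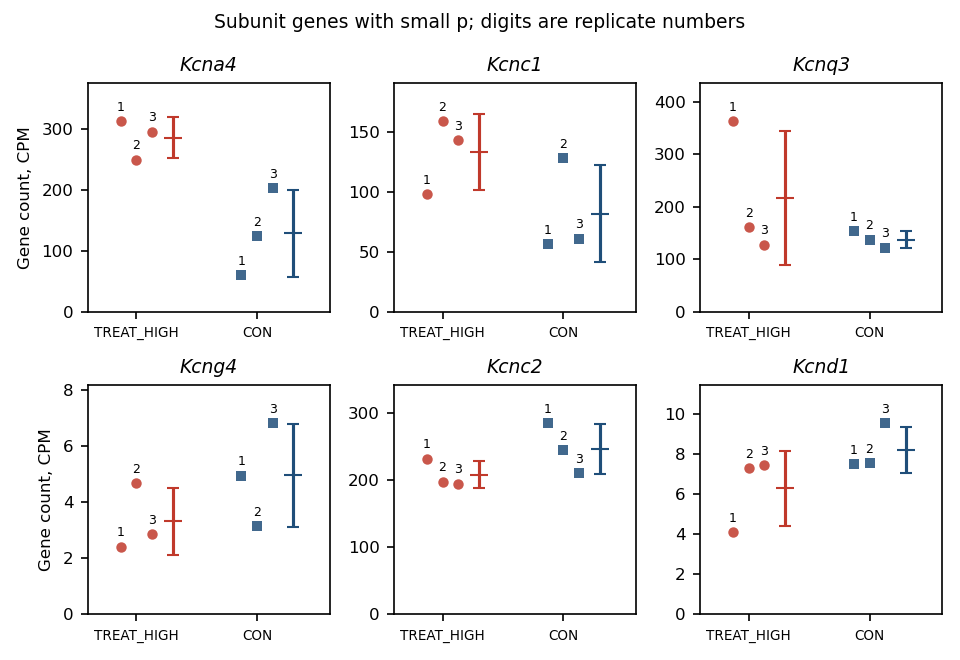
CPM of 6 subunit genes among the 8 with the smallest p, each library as a point with its replicate number, TREAT_HIGH left of CON, with mean and SD beside the points. Kcna4 and Kcnd1 are the genes of this set whose groups do not overlap, and TREAT_HIGH replicate 1 alone lifts Kcnq3.

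Auxiliary subunits and binding partners, such as the beta subunits Kcnab1 to Kcnab3, the KChIP genes Kcnip1 to Kcnip4 and the axonal scaffold Cntnap2, were read from the same fit. Of 28 listed genes 23 were tested and 0 passed in either direction, with 0 at an unadjusted p under 0.05, and the median log2 fold change was 0.03. Kcnip4, a calcium-binding partner of Shal channels, had 1398, 484 and 699 CPM in TREAT_HIGH libraries and 654, 465 and 489 CPM in CON libraries (log2 0.68, SE 0.37). TREAT_HIGH replicate 1 was again the highest library. Cntnap2, which anchors Shaker channels beside the node of Ranvier, had 266, 238 and 268 CPM in TREAT_HIGH libraries and 208, 187 and 233 CPM in CON libraries, with no overlap but no call (log2 0.30, SE 0.14, adjusted p 1.0 in edgeR). Amigo1, a partner of Shab channels, had 1.31 CPM in TREAT_HIGH replicate 1, where the other TREAT_HIGH libraries had 113 and 64.1 CPM and CON libraries 105, 90.6 and 120 CPM.

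The isoforms that carried the gene totals were not the same from library to library. Assembled isoforms took 61.8%, 44.0% and 51.3% of the subunit counts in TREAT_HIGH libraries and 58.2%, 51.4% and 53.8% in CON libraries, against 36.4% to 39.0% over all genes. Among the 22 subunit genes with at least 2 tested isoforms, the isoform with the most counts was not the same in all 6 libraries in 17 (77.3%), against 60.3% of 9326 genes. Shares of a gene's counts ranged over at least 50 percentage points among the 3 TREAT_HIGH libraries for 11 of 95 subunit isoforms (11.6%, against 10.3% of all) and among the 3 CON libraries for 19 of 95 (against 9.19% of all). The deposited isoform counts are the authors' estimates, so a share is an estimate too.

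The Shaw gene Kcnc1 shows how far this went within a group. Its annotated isoform ENSMUST00000025202 (chromosome 7, 46396497 to 46433354) held 57.2%, 77.4% and 82.0% of the counts in TREAT_HIGH libraries and 1.47%, 72.7% and 0.896% in CON libraries. The assembled isoform MSTRG.35062.1, which starts at the same base, held 35.3%, 22.4% and 17.9% in TREAT_HIGH libraries and 77.4%, 20.8% and 81.8% in CON libraries. CON replicate 2 resembled the TREAT_HIGH libraries, so the groups overlapped in both isoforms, while the other CON libraries differed from it by over 50 percentage points. In contrast, ENSMUST00000170146 of Kcnb2 held 93.0% to 95.9% of the counts in TREAT_HIGH libraries and 93.8% to 94.1% in CON libraries.

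In Kcna2 the use of 2 isoforms split by group. The assembled isoform MSTRG.25559.3 of Kcna2 (chromosome 3, 107101944 to 107115005, 3 exons, 11505 bases) had 1, 12 and 6 counts in TREAT_HIGH libraries and 23691, 4954 and 5454 counts in CON libraries. That was 0.00659%, 0.0388% and 0.0228% of the Kcna2 counts in TREAT_HIGH libraries and 73.2%, 22.6% and 20.4% in CON libraries. Its counterpart, the annotated coding isoform ENSMUST00000038695 (3 exons, 11582 bases), held 96.1%, 97.7% and 89.2% in TREAT_HIGH libraries and 22.8%, 74.5% and 76.8% in CON libraries. The shares did not overlap between groups in either isoform, and together the pair held 89.2% to 97.7% of the counts in TREAT_HIGH libraries and 96.0% to 97.2% in CON libraries. Both end at the same base, and their starts lie 377 bases apart: ENSMUST00000038695 starts at base 107101567, the start site of the RefSeq window printed above, and MSTRG.25559.3 starts downstream of the end of that window. In the total of the gene the groups overlapped.

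MSTRG.25559.3 passed the filter on mean FPKM only through the CON libraries, where it is high, so the tests describe an isoform that had to differ and are no support for a group effect. They also gave different answers. In edgeR its log2 fold change was -10.60 (SE 1.53), with an unadjusted p of 0.000761 and an adjusted p of 0.387, where 0.00593% of 50551 isoforms passed and 0 of 107 subunit isoforms did. An unadjusted p under 0.05 was found for 3 subunit isoforms, against 3.49% of all, and the CPM did not overlap between groups for 5 of the 107, against 8.39% of all. In DESeq2, which called 2.4% of all isoforms and 2 of the subunits, the adjusted p was 3.65e-23. For isoform use relative to the gene, the adjusted p was 0.0277 in edgeR's diffSpliceDGE, and leaving out any 1 library raised it above 0.05 (0.0586 to 0.128). It was 0.0696 in limma on the log2 ratio of the isoform to the rest of its gene, a test added after the data were seen. A share of at least 20% in every library of 1 group and under 1% in every library of the other was found for 36 of 40325 isoforms (0.0893%), 1 of them a subunit isoform. These cutoffs were set with the shares of MSTRG.25559.3 in view, so this count is no support for a group effect either.

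**Figure D4:**
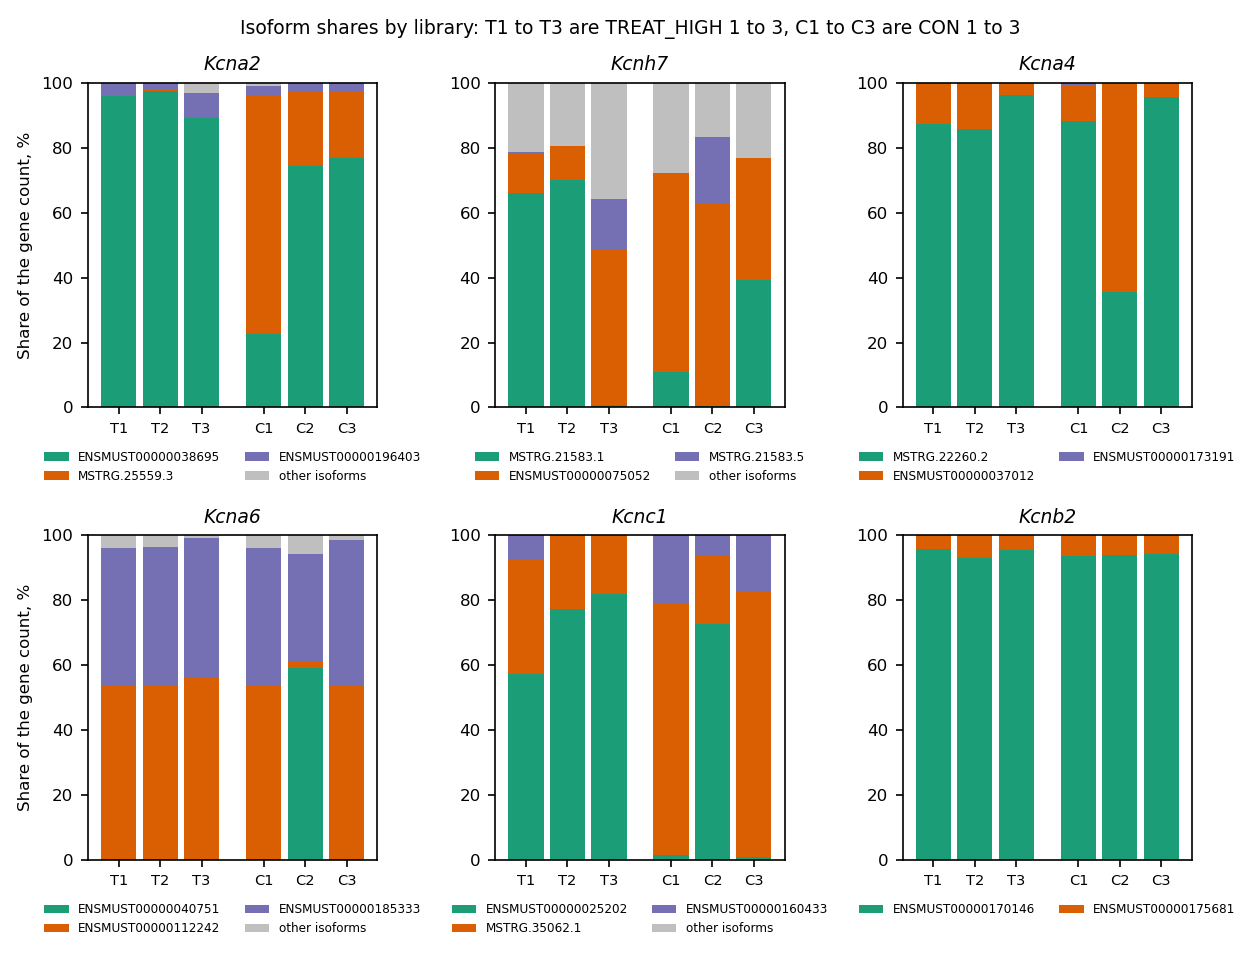
Share of each isoform in the counts of 6 subunit genes, in percent, one bar per library with TREAT_HIGH left of CON. MSTRG.25559.3 of Kcna2 fills 20.4% to 73.2% of the bars in CON libraries and none that can be seen in TREAT_HIGH libraries, the main isoform of Kcnc1 is nearly absent from CON replicates 1 and 3, Kcna4 and Kcna6 differ in CON replicate 2, and Kcnb2 is even.

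Over the subunits, diffSpliceDGE called 2 of 95 isoforms at an adjusted p under 0.05, against 0.774% of all isoforms, and 12 had an unadjusted p under 0.05, against 5.73% of all. The shares did not overlap between groups for 4 of the 95 (4.21%), against 9.41% of all isoforms. At the level of the gene, 0 of 22 subunit genes passed its F test (1.22% of all genes passed), 5 had an unadjusted p under 0.05 (14.3% of all genes), and the smallest adjusted p was 0.075 for Kcna2. The limma ratio test called 0 subunit isoforms, against 0.156% of all isoforms. In that test 4 of the 95 had an unadjusted p under 0.05, against 1484 of all 40325 isoforms.

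MSTRG.2883.3 of the EAG gene Kcnh1 had 152, 799 and 834 counts in TREAT_HIGH libraries and 17, 45 and 0 counts in CON libraries, and its shares did not overlap (2.88%, 16.9% and 19.5% in TREAT_HIGH libraries and 0.361%, 0.799% and 0% in CON libraries). Its edgeR log2 fold change was 4.99 (SE 1.85, unadjusted p 0.0403, adjusted p 1.0), and DESeq2 gave an adjusted p of 0.0262. It met the filter on mean FPKM mainly through the TREAT_HIGH libraries, where it is high. Its tests and lack of overlap are therefore no support for a group effect. MSTRG.13547.2 of Kcnv1 had 2252, 15 and 6 counts in TREAT_HIGH libraries and 13, 7 and 10 counts in CON libraries, high in TREAT_HIGH replicate 1. ENSMUST00000040751 of Kcna6, whose annotated biotype is nonsense-mediated decay, had 14, 3 and 2 counts in TREAT_HIGH libraries and 15, 1572 and 6 counts in CON libraries, high in CON replicate 2. In both genes a single library decided the value. Kcna6 as a gene had 96.4, 123 and 113 CPM in TREAT_HIGH libraries and 114, 53.1 and 120 CPM in CON libraries (log2 0.21, SE 0.30), lowest in the CON library with that isoform. Kcnh3, an ELK subunit, had 47.3, 71.9 and 70.5 CPM in TREAT_HIGH libraries and 66.8, 65.2 and 85.3 CPM in CON libraries (log2 -0.20, SE 0.21), with overlap. In Kcnh3, MSTRG.14423.3 had 0, 1340 and 0 counts in TREAT_HIGH libraries and 0 in each CON library.

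In the last pair of isoforms with small p values, every library carried counts. ENSMUST00000075052 of Kcnh7 had 2866, 1617 and 6726 counts in TREAT_HIGH libraries and 10213, 10444 and 7356 counts in CON libraries. TREAT_HIGH replicate 3 and CON replicate 3 were close in count, and as a share of the gene the groups overlapped, with 12.3%, 10.7% and 47.8% in TREAT_HIGH libraries and 61.2%, 62.7% and 37.3% in CON libraries. MSTRG.22260.2, the 23494-base assembled isoform of Kcna4, had 12810, 9173 and 14284 counts in TREAT_HIGH libraries and 2591, 2211 and 10697 counts in CON libraries. In these unscaled counts CON replicate 3 lay inside the range of TREAT_HIGH. Its library was the largest, with an effective size of 54873651 in the gene fit, against 42816950 in TREAT_HIGH replicate 2. Scaled by the effective sizes of the gene fit, CON replicate 3 lay below every TREAT_HIGH library, so the groups did not overlap at equal depth. On the sizes of the isoform fit, 8.39% of all isoforms did not overlap. Neither isoform passed in edgeR (adjusted p 1.0 for both).

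The circRNAs of the subunit genes came mostly from the H family, which hosted 41 of the 69 and 399 of their 475 back-splice reads. Of the 69, 60 were exonic circles and 9 were intron circles, 39 were seen in 1 library and 4 in all 6, and 36 had at most 2 reads in all. Kcnh5, an EAG subunit on chromosome 12, hosted 35, 27 and 21 reads in TREAT_HIGH libraries and 33, 20 and 27 reads in CON libraries, and Kcnh1 hosted 26, 24 and 26 reads in TREAT_HIGH libraries and 27, 26 and 26 reads in CON libraries. Per 1000 counts of the gene, Kcnh5 gave 7.32, 6.33 and 5.803 back-splice reads in TREAT_HIGH libraries and 6.71, 5.56 and 4.94 in CON libraries. Kcnh7, with more linear RNA than either, gave 0.514, 0.596 and 0.355 in TREAT_HIGH libraries and 1.02, 0.600 and 1.27 in CON libraries. Its groups nearly touched without overlap on this scale, with 9 reads in TREAT_HIGH replicate 2 and 10 in CON replicate 2. Kcnq3 (16 reads in all, lower in TREAT_HIGH) and Kcnc2 (8 reads in all, higher in TREAT_HIGH) did not overlap either. No test was run on this scale, and the share without overlap over all host genes was not computed.

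Of the 69 circRNAs, 20 had reads in at least 3 libraries and were tested, and 0 passed in edgeR at an adjusted p under 0.05 (0.0305% of 3275 circRNAs passed). An unadjusted p under 0.05 was found for 1 (4.95% of all), and the groups did not overlap in 2, against 11% of all circRNAs. The 20 split evenly, with 10 log2 fold changes above 0 and 10 below and a median of -0.14, against 0.15 for all circRNAs. The most abundant, mmu_circ_0004193 of Kcnh5 (chromosome 12, 75114191 to 75154281, 5 exons), had 19, 21 and 17 reads in TREAT_HIGH libraries and 21, 10 and 20 reads in CON libraries (log2 0.37, SE 0.44). mmu_circ_0008571 of Kcnh1 (chromosome 1, 192221333 to 192242037, 4 exons) had 15, 13 and 15 reads in TREAT_HIGH libraries and 19, 10 and 15 reads in CON libraries (log2 0.17, SE 0.48). Both overlapped.

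The smallest p belonged to circRNA4762 of Kcnq3 (chromosome 15, 66016450 to 66031470, 8 exons), with 0, 0 and 0 reads in TREAT_HIGH libraries and 2, 5 and 3 reads in CON libraries. Set against a floor of 3 counts over the TREAT_HIGH group, its scaled CON reads were 2.9-fold higher, a ratio that takes the 10 CON reads as exact. The adjusted p was 0.826 in edgeR. This circRNA met the filter of reads in 3 libraries only through the CON libraries, so its p, this ratio and its lack of overlap support no difference. The linear counts of its host had a log2 fold change of 0.66, with overlap, as given above. circRNA401 of Kcnh5, the other circRNA without overlap, had 1, 0 and 0 reads in TREAT_HIGH libraries and 3, 2 and 2 reads in CON libraries. mmu_circ_0010071 of Kcnh7 had 0, 0 and 1 reads in TREAT_HIGH libraries and 2, 1 and 7 reads in CON libraries. Both met the filter of reads in 3 libraries through the CON libraries, where they were higher, so neither supports a difference. Reads were higher in TREAT_HIGH for circRNA9652 of Kcnh1, with 1, 0 and 4 reads in TREAT_HIGH libraries and 0, 0 and 1 reads in CON libraries. Each of these circRNAs had at most 11 reads over all libraries, and none passed.

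**Figure D5:**
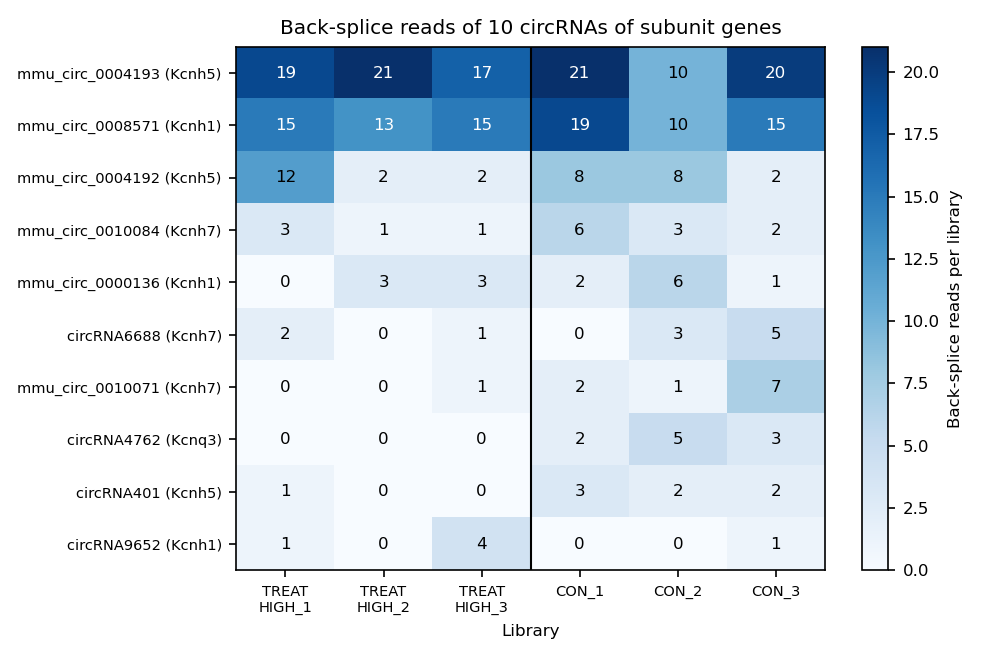
Back-splice reads of the 10 named circRNAs (rows, with host gene) in each library (columns, TREAT_HIGH left of CON), with the number of reads written in each cell and shown by colour. The top pair of circRNAs holds 10 to 21 reads in every library, and circRNA4762 holds 0 in TREAT_HIGH libraries and 2 to 5 in CON libraries.

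The 4 other circRNAs among the 8 with the most reads were mixed. mmu_circ_0004192 of Kcnh5, which shares its lower coordinate with mmu_circ_0004193, had 12, 2 and 2 reads in TREAT_HIGH libraries and 8, 8 and 2 reads in CON libraries. mmu_circ_0010084 of Kcnh7 had 3, 1 and 1 reads in TREAT_HIGH libraries and 6, 3 and 2 reads in CON libraries, mmu_circ_0000136 of Kcnh1 had 0, 3 and 3 reads in TREAT_HIGH libraries and 2, 6 and 1 reads in CON libraries, and circRNA6688 of Kcnh7 had 2, 0 and 1 reads in TREAT_HIGH libraries and 0, 3 and 5 reads in CON libraries. All 4 overlapped between the groups.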

How the data were processed

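Per the labels' protocols, RNA was extracted with Trizol, depleted with Ribo-Zero and made into libraries with a TruSeq stranded kit. HISAT2, StringTie and TopHat are named in the submitters' processing notes. The sources used here give no versions, no genome build and no strand setting of the counting, so genes that overlap on opposite strands may share reads. Of 917 small nuclear RNA genes, 792 had the positions of GRCm38.p6. The linear table holds FPKM and an estimated count per isoform, deposited by the authors, and the estimated counts were whole numbers. The circRNA table holds the deposited back-splice count and a deposited signal, SRPBM, which is the count scaled by 1 total per library.

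Isoform counts and FPKM were summed per gene. A gene or isoform was tested if its FPKM averaged 0.5 or more across libraries, and a circRNA if it had reads in at least 3 libraries. The test was two-sided, by quasi-likelihood in edgeR 4.0.16 under R 4.3.3, over the whole table, with TMM factors (for circRNAs the totals behind SRPBM) and Benjamini-Hochberg adjustment. CPM uses the TMM library sizes, and SE comes from the F statistic. Isoform use was tested with diffSpliceDGE. Alternatives used DESeq2 1.42.0, limma 3.58.1 on log2 FPKM with pseudocounts of 0.1 and 1, other filters, a replicate block and each library left out. Fits were tested on simulated data. Back-splice reads carry no molecular identifiers, so floors cover counting error only.

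Values in every library are given for the highest members of each family (the 2 highest in A, B, C, D, H and Q), the 8 genes and 8 isoforms with the smallest p, the 6 genes with the smallest p for isoform use, the 8 circRNAs with the most reads and the 4 with the smallest p. Members and lists were chosen with earlier results of these data known. circRNA sequences were not used here. Single values of 4 members that these rules choose or that the plots would show are not reported here, though counts and sums over all members include them.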

Additional observations from a re-analysis of the deposited data

How the results depend on the processing

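The count of called subunit genes was 0 in all 13 alternatives, and that of called subunit circRNAs in all 10. Subunit isoforms called numbered 0 except in DESeq2 (2), and isoforms called for use numbered 2, but 0 in the limma ratio test and 0 to 1 with 1 library left out. The gene F test of isoform use called 0 subunit genes, but 1 with the replicate block and 0 to 1 with 1 library left out. Over all genes, 5 calls became 47 in DESeq2, 2 without the filter, 0 in limma with either pseudocount, 0 with annotated isoforms only, 0 with the replicate block and 0 to 17 with 1 library left out (17 without TREAT_HIGH replicate 1). Over all isoforms, 3 calls became 1211 in DESeq2, 0 without the filter, 33 and 20 in limma with pseudocounts of 0.1 and 1, 0 with the block and 0 to 1 with 1 library left out. Isoform use over all isoforms moved from 312 calls to 63 in the ratio test and 616 without the filter, and its gene F test from 114 to 310 with the block and 174 to 216 with 1 library left out. circRNA calls went from 1 to 2 with TMM, 4 with reads in at least 1 library, 3 with the block and 0 to 3 with 1 library left out.

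The labels do not say that libraries with the same replicate number form pairs, so the main fits had no block. Deviations of same-numbered libraries from their group means correlated by 0.1555, 0.0893 and 0.0598. In the other group, 6 of 6 libraries correlated best with the library of their own number. These 6 matches were read from the same set of correlations and are not independent of each other. They are at most a weak hint of pairs, from the data and not from the design. With the block, the isoform use calls were of Kcnh3 isoforms (MSTRG.14423.3 and MSTRG.14423.4), and MSTRG.25559.3 of Kcna2 had an adjusted p of 0.179. MSTRG.14423.3 had counts in TREAT_HIGH replicate 2 only, as given above, so its call rests on a single library.

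Of 415 alternatives for 35 named members, 365 kept direction and side of the threshold, 40 changed sign, 2 gained a call, 8 lost one, and 20 members kept their sign throughout. With annotated isoforms only, log2 fold changes became 0.80 for Kcna2, 0.075 for Kcna1, 0.14 for Kcnc4, -0.92 for Kcnh7, -0.11 for Kcnq3 and -0.16 for Kcna4. In limma with pseudocounts of 0.1 and 1 they became 0.0074 and 0.0097 for Kcna2, -0.0084 and -0.0070 for Kcnf1, 0.013 and 0.011 for Kcng3, and 0.27 and 0.25 for Kcnh1. With 1 library left out they ran from -0.31 to 0.25 for Kcna2, -0.21 to 0.033 for Kcna1, -0.12 to 0.19 for Kcnb2, -0.080 to 0.094 for Kcnc4, -0.52 to 0.29 for Kcnd2, -0.065 to 0.15 for Kcnf1, -0.15 to 0.032 for Kcng3, -0.11 to 0.31 for Kcnh7, -0.11 to 0.077 for Kcnh1 and -0.36 to 0.063 for Kcnv1. For circRNAs they ran from -0.029 to 0.36 for mmu_circ_0008571, -1.31 to 0.43 for mmu_circ_0004192 (-0.20 with TMM, -0.17 with the block) and -0.84 to 0.61 for mmu_circ_0000136. The cause of these changes was not tested. With 3 libraries a group, the 95% interval reached 2-fold for 15 of 34 tested genes, and 36 of the 69 circRNAs had at most 2 reads. What sets the width of the intervals was not tested.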
